A study of Mus musculus with 6 samples.

Results

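Hox genes encode homeodomain transcription factors, and 36 of them were analysed among the 21117 genes of a table of mouse aorta in FPKM, fragments scaled to transcript length and to the size of the library. They were taken as protein-coding genes whose symbol is Hoxa, Hoxb, Hoxc or Hoxd followed by a number from 1 to 13, matched through the NCBI gene number in the table. They comprised 10 Hoxa, 9 Hoxb, 9 Hoxc and 8 Hoxd genes. Hoxb13 and Hoxd12 were not analysed here. A gene was tested where its mean over the 6 libraries was at least 1 FPKM, which 26 of the 36 Hox genes passed.

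The libraries were made from poly(A)-selected RNA of aortic tissue of untreated mice aged 32 weeks, 3 labelled wild type (WT) and 3 labelled Fbn1C1041G/+. The latter carry 1 missense allele of the fibrillin-1 gene, a mouse model of Marfan syndrome. The design text asks which genes differ between the genotypes. The labels do not give the strain, the sex or the stretch of aorta, nor whether each library came from a separate animal. A p-value below sets the difference between the groups only against the spread between these libraries, which may be technical.

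Mammalian Hox genes lie in 4 clusters on different chromosomes, and genes with the same number in different clusters are paralogs that descend from one ancestral gene. Within a cluster the genes are switched on in the order in which they lie, low numbers towards the head and high numbers towards the tail, and adult vessel walls keep part of that pattern, so that smooth muscle cells and fibroblasts of the aortic arch and of the descending aorta differ in their Hox genes. Hox proteins bind DNA together with homeodomain partners of the Pbx and Meis families. Retinoic acid, Polycomb and Trithorax proteins set or keep the state of the clusters.

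The promoters of 3 genes of paralog group 4 are shown because the lower level of Hoxc4 in Fbn1C1041G/+ samples, set against its paralogs, is the difference to which the results below return. That of Hoxa4, the remaining gene of the group, is not shown. Each sequence runs 5′ to 3′ on the plus strand from 250 bases before to 50 bases after the gene's RefSeq start in GRCm38.p6, a later build than the mm9 of the deposited values. Capitals mark the letters TGACCT, which read AGGTCA on the other strand, a retinoid receptor motif of which such receptors bind paired copies and which other nuclear receptors share.
Hoxc4: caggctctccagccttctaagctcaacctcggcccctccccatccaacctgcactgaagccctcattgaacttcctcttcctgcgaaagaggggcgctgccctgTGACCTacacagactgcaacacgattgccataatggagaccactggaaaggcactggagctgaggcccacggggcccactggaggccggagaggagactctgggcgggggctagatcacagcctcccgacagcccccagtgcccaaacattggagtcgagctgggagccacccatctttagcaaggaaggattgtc
Hoxb4: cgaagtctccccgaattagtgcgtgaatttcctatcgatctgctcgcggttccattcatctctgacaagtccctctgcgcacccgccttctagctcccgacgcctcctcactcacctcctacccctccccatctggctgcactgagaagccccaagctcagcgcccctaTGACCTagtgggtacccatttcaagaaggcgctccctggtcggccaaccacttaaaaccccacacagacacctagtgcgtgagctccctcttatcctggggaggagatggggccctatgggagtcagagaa
Hoxd4: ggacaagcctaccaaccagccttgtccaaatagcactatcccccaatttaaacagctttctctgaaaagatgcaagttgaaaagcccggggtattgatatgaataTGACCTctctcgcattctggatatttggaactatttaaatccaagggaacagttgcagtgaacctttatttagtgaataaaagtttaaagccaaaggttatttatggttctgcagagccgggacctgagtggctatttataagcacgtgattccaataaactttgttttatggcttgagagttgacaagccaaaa
The Hoxc4 window is chr15:103034145-103034444 and overlaps exons of the transcripts Hoxc4-201 and Hoxc4-202 in the GENCODE M21 annotation of the same build. The Hoxb4 window is chr11:96318017-96318316 and overlaps an exon of Hoxb4-201. The Hoxd4 window is chr2:74721728-74722027, where it overlaps an exon of Hoxd4-201 and lies in introns of Hoxd4-203 and of Hoxd3-203, a transcript of the neighbouring Hox gene.

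The 3 windows share this motif and differ in base composition. Counted from the first base of the window, TGACCT begins at position 105 in Hoxc4, 170 in Hoxb4 and 106 in Hoxd4. G and C made up 60.3% of the Hoxc4 window, 58% of the Hoxb4 window and 39.7% of the Hoxd4 window, with 9, 14 and 4 CpG dinucleotides. Of 36 Hox genes, 21 had a promoter of this length in the RefSeq table, and AGGTCA on either strand was in 7 of those 21 and in 16.0% of all 27025 promoters. The 7 were Hoxa5, Hoxb4, Hoxc4, Hoxd3, Hoxd4, Hoxd8 and Hoxd10. The Pbx-Hox motif TGATNNAT was in 3 of the 21 (Hoxa2, Hoxb1 and Hoxb8) and in 9.04% of all promoters. The Meis motif TGACAG was in 2 of the 21 (Hoxa2 and Hoxa3) and in 19.3% of all promoters. Neither motif is in the windows printed here, where only these letters, on both strands, were searched. None of the 3 motifs is contained in another, and a match is a stretch of letters, not a bound site.

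The libraries were of similar depth. The low FPKM values of single-transcript genes step by what 1 fragment is worth, which gave 13970000 to 17080000 fragments a library. Of 13438 tested genes, 652 were lower and 100 higher in Fbn1C1041G/+ samples (limma, Benjamini-Hochberg adjusted p under 0.05), 5.60% of those tested. Fbn1 itself, in which the allele changes 1 residue and which therefore does not check the labels, stood at 16.94, 17.27 and 22.18 FPKM in WT replicates 1 to 3 and at 22.29, 21.78 and 28.62 FPKM in Fbn1C1041G/+ replicates 1 to 3 (log2 fold change 0.35; adjusted p = 0.432). All 6 smooth muscle markers were detected, with a summed level of 9086 to 10521 FPKM in WT libraries against 9685 to 11888 FPKM, none called, and neither was any of 5 endothelial or 5 fibroblast markers. Other tissues differed: 8 of 9 markers of sympathetic neurons and chromaffin cells were lower in mutant samples (summed level 1528 to 1772 FPKM against 177.2 to 324.2 FPKM), as were 2 of 5 Schwann cell and glial markers (205.2 to 312.0 against 132.0 to 196.5 FPKM). Of 8 heart muscle markers 5 were higher (18.1 to 34.1 against 114.9 to 437.0 FPKM), as were 1 of 5 tested skeletal muscle markers (7.07 to 13.2 against 15.7 to 126.5 FPKM) and 1 of 5 macrophage markers (184.9 to 271.5 against 320.7 to 784.2 FPKM). The skeletal marker called was Ckm, at 11.21 FPKM in Fbn1C1041G/+ replicate 3. In that library no other skeletal marker exceeded the highest WT library. The 4 T and B cell markers, none called, summed to 3.12 to 5.60 against 8.54 to 40.4 FPKM. None of 6 adipocyte, 2 tested mesothelial and 2 tested epithelial markers was called. The adipocyte sum was uneven among WT libraries, at 982.4 to 3441 against 1223 to 2189 FPKM. WT replicate 3 was the highest of all libraries for every adipocyte marker except Lep, with Ucp1 at 1071, Cidec at 920.7 and Adipoq at 852.0 FPKM. Nor was 1 tested marker of thymus and lymph node stroma called, whose defining gene Foxn1 was listed at 0 in every library. The part of these cells in the Hox values was not tested.

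The aorta held transcripts of all 4 Hox clusters in both genotypes, most of them in the middle of the paralog series. All 15 Hox genes of paralogs 4 to 8 passed the filter, against 5 of 7 of paralogs 1 to 3 and 6 of 14 of paralogs 9 to 13. Means over the 6 libraries ran from 1.535 FPKM for Hoxd3 to 17.3 FPKM for Hoxc6, with a median of 6.72 FPKM, and 6 genes reached 10 FPKM: Hoxc6, Hoxa5 (16.6), Hoxa3 (14.3), Hoxb2 (13.3), Hoxc8 (11.6) and Hoxb6 (11.4 FPKM). FPKM is scaled to transcript length, so these levels can be set beside one another, as far as the authors' lengths hold. Neighbours in that order, such as Hoxc6 and Hoxa5, differed by less than the spread between libraries (Hoxc6 ranged from 12.95 to 22.11 FPKM). The plot of Hox levels by cluster shows every library.

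**Figure D1:**
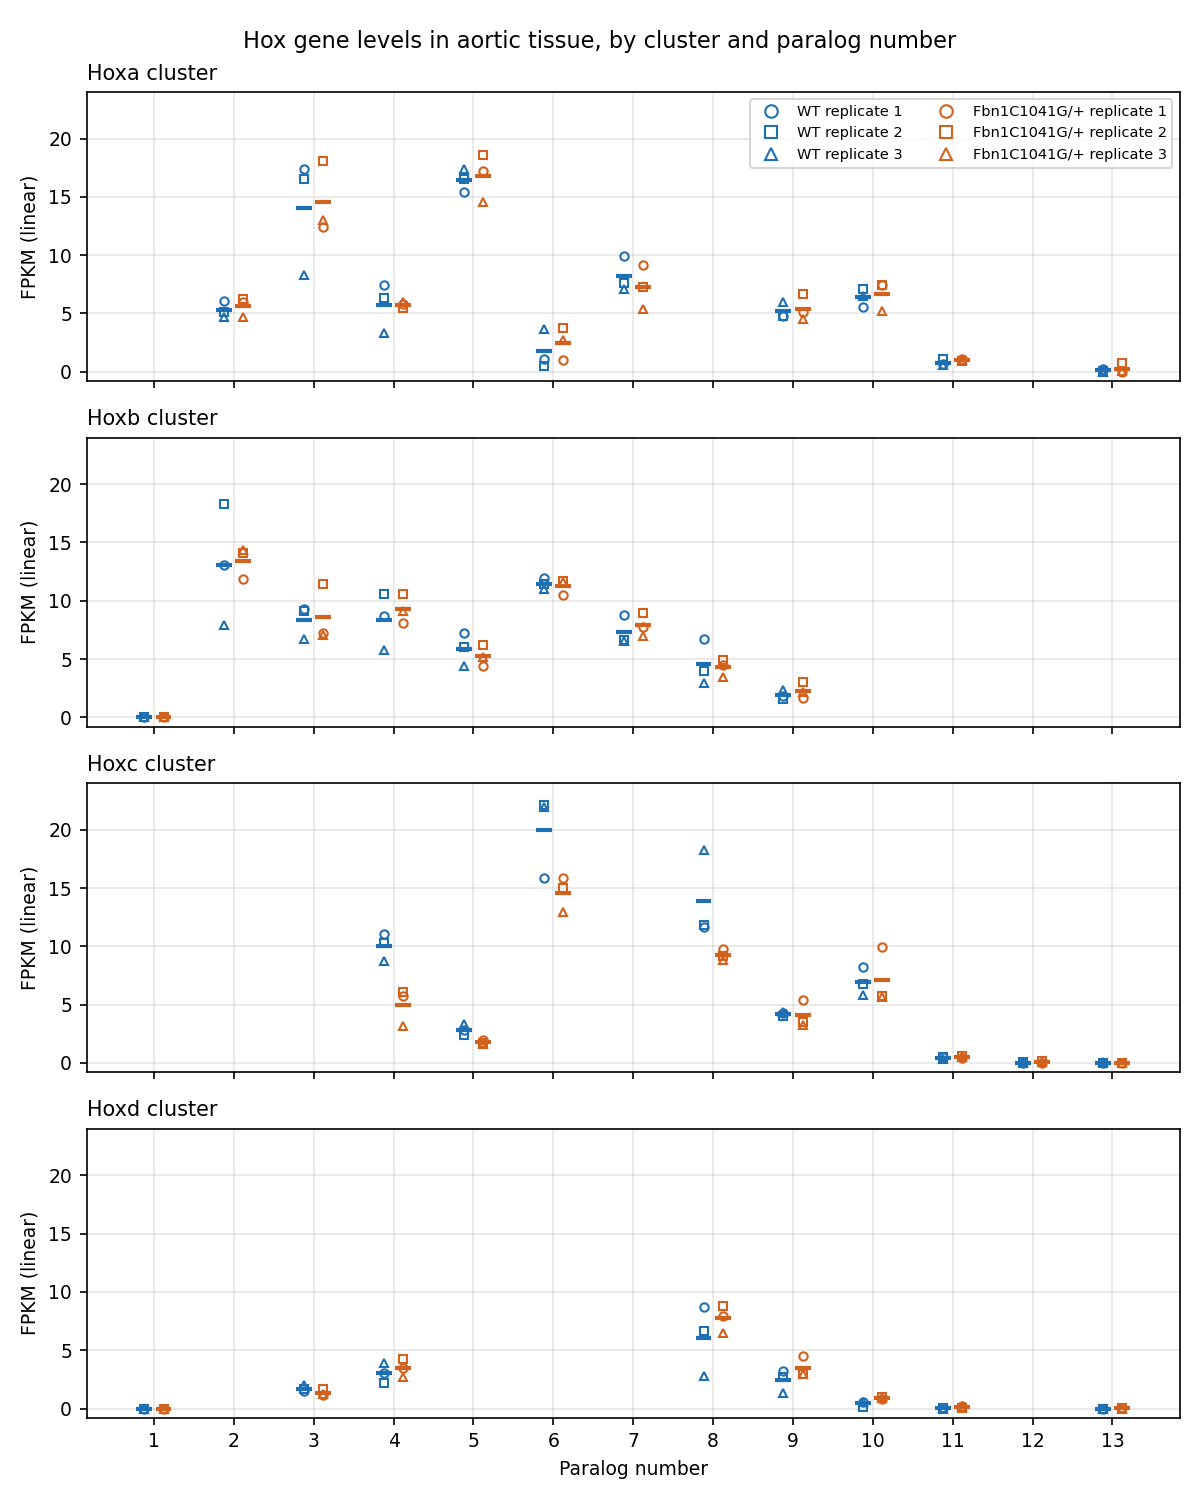
Level of each of the 36 Hox genes in FPKM (linear axis) against paralog number, with 1 panel per cluster, 1 point per library (shape for the replicate number, blue for WT and orange for Fbn1C1041G/+) and short lines for the group means. The 3 mutant points of Hoxc4 (mean 4.99 FPKM) lie below its 3 WT points (mean 10.05 FPKM), and the plotted genes of paralogs 12 and 13 lie under 1 FPKM.

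None of the 26 tested Hox genes was called in either direction by limma with Benjamini-Hochberg adjustment over all tested genes, against 5.60% of all genes (4.85% lower and 0.744% higher). At an unadjusted p under 0.05, 4 of 26 (15.4%) passed, all lower in mutant samples, against 15.2% of all genes (10.3% lower and 4.86% higher), so the share was near the background. These 4 were Hoxc4, Hoxc5, Hoxc6 and Hoxc8, all the tested Hoxc genes of paralogs 4 to 8. Groups did not overlap, with mutant samples lower, for 3 of 26 (11.5%; Hoxc4, Hoxc5 and Hoxc8) against 13.1% of all genes, and did not overlap with mutant samples higher for 0 of 26, against 6.85%, or 20.0% in either direction. The median log2 fold change over the 26 was 0.04, against -0.0036 over all tested genes.

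By cluster, only the Hoxc median lay below 0. It was -0.44 over 6 Hoxc genes, 0.06 over 8 Hoxa genes, 0.06 over 8 Hoxb genes and 0.28 over 4 Hoxd genes. Hoxa, Hoxb and Hoxd genes together had 15 of 20 values above 0, between -0.21 and 0.43, and their groups overlapped in all 20. Within Hoxc the values split by paralog number, with a median of -0.49 over 4 genes of paralogs 4 to 8 and of -0.03 over Hoxc9 and Hoxc10. By paralog number alone, the medians were 0.07 for paralogs 1 to 3, -0.02 for paralogs 4 to 8 and 0.05 for paralogs 9 to 13. The Hoxc median lay below 0 in all 18 alternatives (-0.52 to -0.33). The medians of Hoxa and Hoxb turned below 0 with sample weights (-0.0099 and -0.03), that of Hoxb also without WT replicate 3 (-0.09), and that of all 26 genes was then -0.08 in both cases. Without Fbn1C1041G/+ replicate 2 the medians of Hoxa (-0.034), Hoxb (-0.024), all 26 genes (-0.034) and paralogs 1 to 3 (-0.071) also lay below 0, and that of paralogs 1 to 3 did so with sample weights (-0.11) and without WT replicate 3 (-0.13). The median of paralogs 4 to 8 had no steady sign, lying below 0 in 11 of 18 alternatives and above it with quantile normalization (0.028), median-ratio scaling (0.017), GC correction with and without the block (0.031), and without WT replicate 1 (0.025) or Fbn1C1041G/+ replicate 1 (0.0054) or 3 (0.049). Differences between clusters were not tested.

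**Figure D2:**
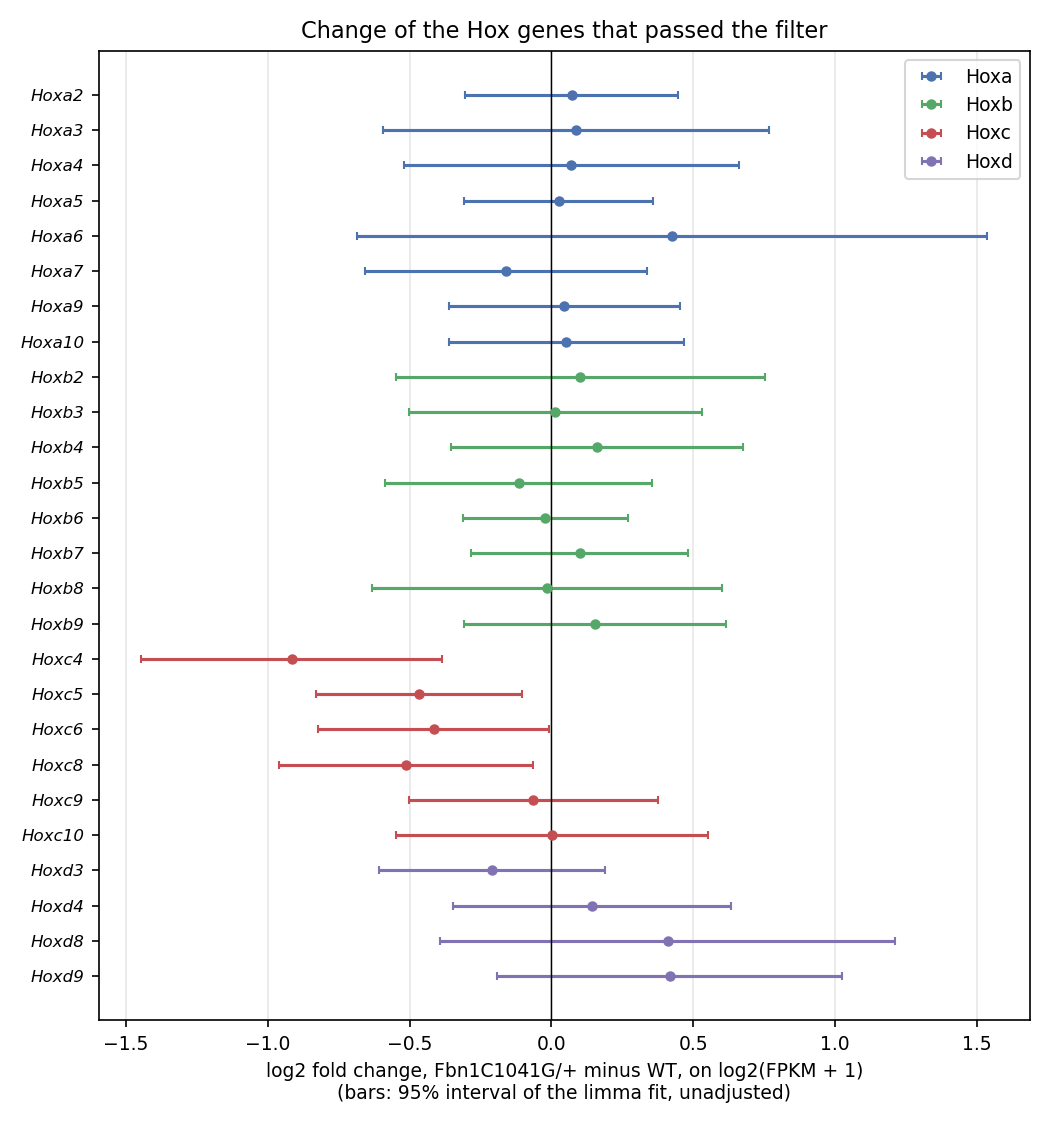
Log2 fold change, Fbn1C1041G/+ minus WT on the log2(FPKM + 1) scale, of each tested Hox gene, in chromosomal clusters, with bars for the 95% confidence interval of the limma fit. The interval of Hoxc4 runs from -1.45 to -0.38, those of Hoxc5, Hoxc6 and Hoxc8 also end below 0, and those of the other 22 genes include 0.

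Hoxc4, whose paralog group is active in the neck and upper trunk, had the lowest fold change of the 26. Its level was 11.09, 10.32 and 8.73 FPKM in WT replicates 1 to 3 and 5.73, 6.05 and 3.19 FPKM in Fbn1C1041G/+ replicates 1 to 3. Every mutant library lay below every WT library, and Fbn1C1041G/+ replicate 3 was the lowest. The means were 10.05 ± 1.20 and 4.99 ± 1.57 FPKM (SD, n = 3 each). On the log2 scale the difference was -0.91 ± 0.23 (SE), with a limma adjusted p of 0.0710. These values rest on an estimated 361, 346 and 242 fragments in WT and 194, 175 and 101 in mutant libraries. Among transcripts of the analysed Hox genes and Mir615, the only ones compared, none of another gene overlaps Hoxc4 in the annotation. The adjusted p fell under the threshold with sample weights (0.0196), with the replicate number as a block (0.0356) and with a GC correction and that block together (0.0217), and it rose to between 0.0723 and 0.235 when 1 library was left out. In bulk tissue, fewer cells that express a gene and less of its RNA per cell cannot be told apart.

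Hoxc5, Hoxc6 and Hoxc8, also factors of the cervical and thoracic trunk, had smaller differences. Hoxc5 stood at 2.80, 2.43 and 3.32 FPKM in WT and 1.99, 1.71 and 1.63 FPKM in mutant libraries (log2 fold change -0.47 ± 0.15 SE; limma adjusted p = 0.182). Hoxc8 stood at 11.65, 11.87 and 18.24 FPKM in WT and 9.76, 9.14 and 8.86 FPKM in mutant libraries (-0.51 ± 0.19; adjusted p = 0.242). The groups did not overlap for either gene, but WT replicate 3 was the highest library for Hoxc8, whose log2 fold change was -0.32 without it. Hoxc6 stood at 15.85, 22.11 and 21.94 FPKM in WT and 15.90, 14.98 and 12.95 FPKM in mutant libraries (-0.42 ± 0.17; adjusted p = 0.315), and here WT replicate 1 was as low as Fbn1C1041G/+ replicate 1. A transcript of Hoxc5 in the annotation spans Hoxc6, Hoxc8 and Hoxc9 without a shared exon. It shares exon sequence with Hoxc10, so that reads may have been split between Hoxc5 and Hoxc10.

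The 2 tested Hoxc genes of higher number, which mark the lower trunk and hind limb level, had values near 0. Hoxc9 stood at 4.26, 3.99 and 4.38 FPKM in WT and 5.43, 3.52 and 3.26 FPKM in mutant libraries (log2 fold change -0.06; limma adjusted p = 0.947). Hoxc10 stood at 8.21, 6.79 and 5.79 FPKM in WT and 9.97, 5.71 and 5.65 FPKM in mutant libraries (0.0023; adjusted p = 0.99966), with a confidence interval from -0.55 to 0.55. In both genes Fbn1C1041G/+ replicate 1 was the highest library.

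Against its paralogs, Hoxc4 held a smaller share of its group in mutant samples. It made up 36.6, 35.1 and 40.2% of the summed FPKM of Hoxa4, Hoxb4, Hoxc4 and Hoxd4 in WT and 24.9, 23.0 and 15.2% in mutant libraries, 37.3 ± 2.62% against 21.0 ± 5.14% (SD, n = 3 each). The groups did not overlap, while the other 3 genes summed to 19.2, 19.1 and 12.99 FPKM in WT and 17.3, 20.3 and 17.8 FPKM in mutant libraries. Hoxc5 held 10.99, 9.75 and 13.2% of its paralog group in WT and 8.41, 6.44 and 7.61% in mutant libraries, again without overlap. Hoxc6 held 54.96, 64.9 and 59.9% against 58.1, 49.3 and 47.4%, and Hoxc8 held 43.0, 52.7 and 76.2% against 43.9, 39.9 and 47.0%, with overlap in both. A share is a score over members and was not tested.

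**Figure D3:**
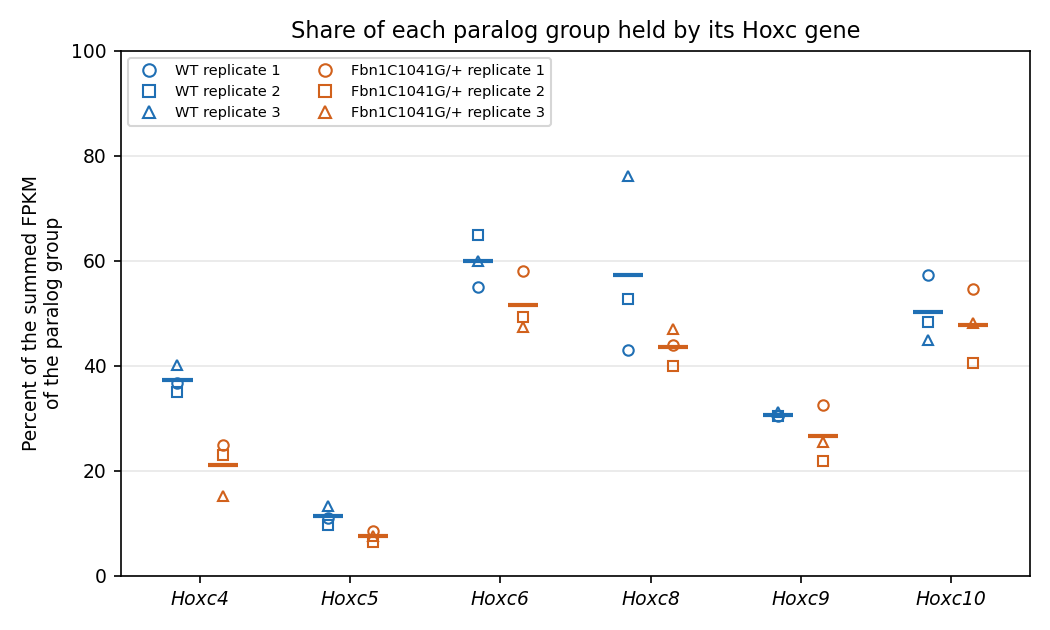
Share, in percent, of the summed FPKM of a paralog group held by its Hoxc gene, for paralogs 4, 5, 6, 8, 9 and 10, with 1 point per library in 2 colours for WT and Fbn1C1041G/+ and lines for the group means. The 3 mutant libraries lie below the 3 WT libraries for Hoxc4 (15.2 to 24.9% against 35.1 to 40.2%) and Hoxc5 (6.44 to 8.41% against 9.75 to 13.2%), and the groups overlap for the other 4.

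The sum over these Hox genes differed by less than the spread between libraries. It was 207.6, 204.8 and 178.4 FPKM in WT and 188.5, 206.8 and 167.7 FPKM in mutant libraries (196.9 ± 16.1 against 187.7 ± 19.5, SD, n = 3 each). Hoxc genes held 26.2, 28.4 and 35.2% of that sum in WT and 26.1, 20.3 and 21.5% in mutant libraries, and Hoxd genes 8.25, 6.55 and 5.92% against 9.57, 9.06 and 8.61%. The groups did not overlap for either, by a narrow margin for Hoxc, where WT replicate 1 and Fbn1C1041G/+ replicate 1 were 26.2 and 26.1%. Hoxa shares were 33.03, 32.04 and 32.2% against 34.6, 36.4 and 34.1%, also without overlap, and Hoxb shares of 26.6 to 33.05% and 29.7 to 35.8% overlapped. Shares of 1 sum are not independent, since a lower Hoxc share raises the others. Paralogs 4 to 8 held 63.9 ± 3.48% in WT and 59.8 ± 0.568% in mutant samples, without overlap. Paralogs 1 to 3 held 16.6 to 24.7% and 20.5 to 24.9%, with overlap, and paralogs 9 to 13 held 14.1 to 15.6% and 15.7 to 19.4%, without. The separation of both bands was lost when Hoxc6 was left out of the sum: paralogs 4 to 8 then held 56.4 to 63.3% and 56.0 to 56.9%, and paralogs 9 to 13 held 15.6 to 17.8% and 17.02 to 21.2%.

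Genes of paralogs 1 to 3, which pattern the hindbrain and the neural crest that builds the aortic arch and outflow tract, included 5 tested members. Hoxa2, which sets the identity of the branchial arch neural crest, stood at 6.07, 5.12 and 4.67 FPKM against 5.96, 6.20 and 4.68 FPKM. Hoxa3, needed for the arch artery of the carotids and for the thymus and parathyroid, stood at 17.38, 16.50 and 8.33 FPKM against 12.44, 18.10 and 13.03 FPKM. WT replicate 3 was the lowest library for both genes, and the groups overlapped. Hoxb2 stood at 13.05, 18.33 and 7.90 FPKM in WT and 11.88, 14.07 and 14.38 FPKM in mutant libraries. Hoxb3 stood at 9.30, 9.09 and 6.68 FPKM against 7.20, 11.48 and 7.03 FPKM. Hoxd3 stood at 1.49, 1.64 and 2.02 FPKM against 1.14, 1.70 and 1.22 FPKM. These paralogs of Hoxa2 and Hoxa3 act with them in the hindbrain and neck, and of the 5 genes only Hoxd3 had a log2 fold change below 0 (-0.21; limma adjusted p = 0.723), the others lying between 0.01 and 0.10. Transcripts of Hoxd3 and Hoxd4 share exon sequence, and those of Hoxa3 span Hoxa4, Hoxa5 and Hoxa6 without a shared exon.

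Among paralogs 4 and 5 outside Hoxc, which act at the level of the neck and upper chest, the groups overlapped in every gene. Hoxa4 stood at 7.43, 6.31 and 3.32 FPKM in WT and 5.82, 5.49 and 5.95 FPKM in mutant libraries. Hoxb4 stood at 8.67, 10.56 and 5.80 FPKM against 8.06, 10.55 and 9.16 FPKM. Hoxd4 stood at 3.08, 2.23 and 3.87 FPKM against 3.44, 4.22 and 2.73 FPKM. The log2 fold changes of these 3 paralogs of Hoxc4 were 0.07, 0.16 and 0.14, where that of Hoxc4 was -0.91. Hoxa5, a gene of the lung and upper thorax, stood at 15.46, 16.50 and 17.38 FPKM against 17.24, 18.63 and 14.59 FPKM. Hoxb5 stood at 7.21, 6 and 4.37 FPKM against 4.42, 6.21 and 5.21 FPKM. Their values were 0.03 and -0.12, with confidence intervals from -0.31 to 0.36 and from -0.59 to 0.35.

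Paralogs 6 to 8, the trunk genes of the thoracic level, ranged widely in their spread between libraries. Hoxb6 stood at 11.92, 11.42 and 11 FPKM in WT and 10.47, 11.71 and 11.63 FPKM in mutant libraries, with coefficients of variation of 4.02% and 6.16%. Hoxa6 stood at 1.07, 0.52 and 3.67 FPKM against 1.02, 3.72 and 2.73 FPKM, with coefficients of 96.0% and 54.9% and an estimated 7.69 fragments in its lowest library. The interval of the log2 fold change was therefore narrow for Hoxb6 (-0.31 to 0.27) and wide for Hoxa6 (-0.69 to 1.54). Hoxa7 stood at 9.93, 7.58 and 7.08 FPKM against 9.18, 7.30 and 5.42 FPKM. Hoxb7 stood at 8.75, 6.66 and 6.53 FPKM against 7.73, 8.91 and 7 FPKM. These 2 paralogs had values of -0.16 and 0.10, with overlap of the groups. Hoxb8 stood at 6.73, 4.01 and 2.93 FPKM against 4.52, 4.95 and 3.49 FPKM. Hoxd8 stood at 8.73, 6.66 and 2.76 FPKM against 7.97, 8.79 and 6.49 FPKM. Both were lowest in WT replicate 3, and their log2 fold changes were -0.02 and 0.41 ± 0.34 (SE; limma adjusted p = 0.731 for Hoxd8).

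Paralogs 9 to 13, which pattern the lower trunk, the limbs and the urogenital tract, were thinly represented. Hoxa9 stood at 4.75, 4.79 and 5.99 FPKM in WT and 5.10, 6.63 and 4.5 FPKM in mutant libraries. Hoxa10, a gene of the lumbar level and the uterus, stood at 5.54, 7.11 and 6.51 FPKM against 7.48, 7.44 and 5.21 FPKM. Hoxb9 stood at 1.84, 1.61 and 2.32 FPKM against 1.70, 3 and 2.13 FPKM. The log2 fold changes of these 3 genes lay between 0.05 and 0.15. Hoxd9 stood at 3.19, 2.70 and 1.33 FPKM against 4.48, 2.97 and 2.95 FPKM, with a value of 0.42 ± 0.26 (SE; limma adjusted p = 0.589). That was the lowest adjusted p of the 22 tested Hox genes other than Hoxc4, Hoxc5, Hoxc6 and Hoxc8, and the groups overlapped.

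Of 10 Hox genes under the filter, 4 reached 0.5 FPKM in some library. Hoxa11, which acts in forearm and kidney development, stood at 0.70, 1.10 and 0.55 FPKM in WT and 1.05, 0.95 and 0.99 FPKM in mutant libraries. Hoxc11 stood at 0.54, 0.52 and 0.31 FPKM against 0.38, 0.61 and 0.48 FPKM, and Hoxa13 at 0.23, 0.09 and 0 FPKM against 0, 0.78 and 0.05 FPKM. Groups overlapped for these 3. Hoxd10 stood at 0.56, 0.16 and 0.57 FPKM in WT and 0.81, 0.95 and 0.90 FPKM in mutant libraries, without overlap, and in a fit with no filter its log2 fold change was 0.41 (limma adjusted p = 0.206). The other 6, Hoxb1, Hoxc12, Hoxc13, Hoxd1, Hoxd11 and Hoxd13, stayed at or under 0.19 FPKM in every library, and Hoxd1 was listed at 0 in all of them. Hoxd11, the gene with that highest value, stood at 0.07, 0.02 and 0 FPKM against 0.19, 0.08 and 0.15 FPKM.

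The libraries of 1 genotype differed among themselves in the Hox genes. WT replicate 3 was the lowest of the WT libraries for 15 of 26 genes and the lowest of all 6 libraries for 11. Against the mean of the other WT libraries, its log2 difference was -1.20 for Hoxd8, -0.94 for Hoxa3, -0.89 for Hoxb2 and -0.86 for Hoxa4. It lay farthest above them for Hoxa6 and Hoxc8. Fbn1C1041G/+ replicate 3 was the lowest of all for 10 genes and the highest for none, and Fbn1C1041G/+ replicate 2 the highest for 10. Without WT replicate 3 the Hoxd median was 0.09 in place of 0.28, and that of paralogs 4 to 8 was -0.22 in place of -0.02. Across all genes, the deviation of WT replicate 3 from its group correlated with transcript GC content (r = -0.38, against 0.25 and 0.31 in WT replicates 1 and 2). Across the 26 Hox genes, which share these libraries and range from 48.8 to 61.0% GC, its log2 difference had a correlation of -0.24 with GC content. The part of base composition in the Hox values of that library was not tested.

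**Figure D4:**
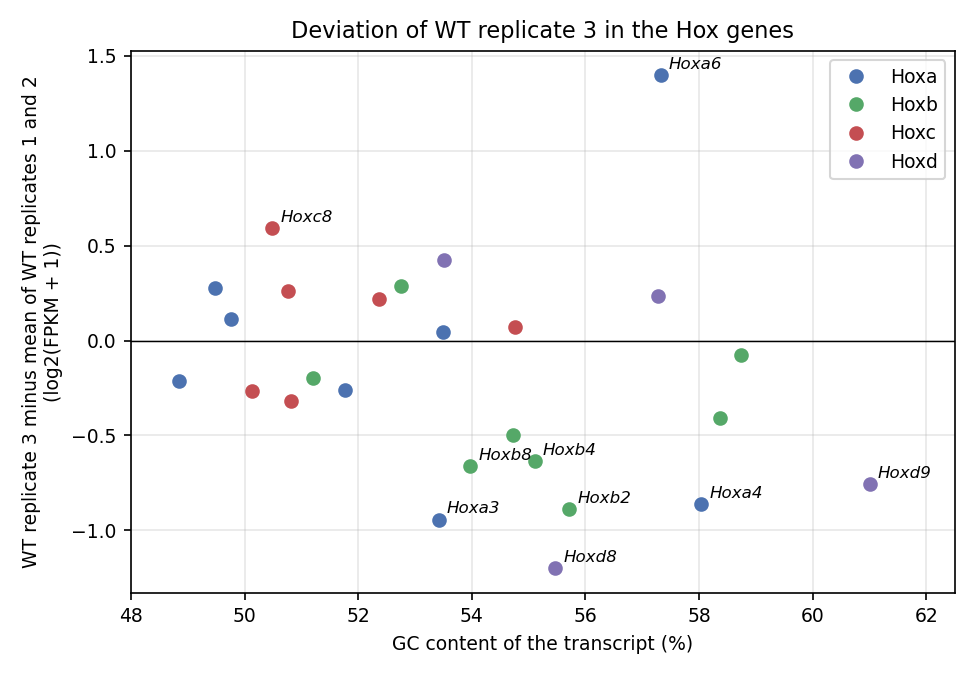
Log2 difference of WT replicate 3 from the mean of WT replicates 1 and 2 for each of 26 Hox genes (vertical axis) against transcript GC content in percent (horizontal axis), coloured by cluster. Of the 26 points 15 lie below 0, Hoxd8 lowest at -1.20, and the correlation across genes is -0.24.

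Other transcripts of the clusters, chosen by position after the values had been seen, gave no call either. Of 12 long noncoding RNA genes inside the clusters 5 were tested and none was called by limma (5.60% of all genes were). Hotairm1, in the Hoxa cluster, stood at 23.82, 22.27 and 13.03 FPKM in WT and 18.74, 17.84 and 23.68 FPKM in mutant libraries (log2 fold change 0.06), and was lowest in WT replicate 3, like Hoxa2 and Hoxa3. Hoxaas2, Mira, Hoxa11os and Hoxb5os had log2 fold changes of -0.14, 0.03, 0.24 and -0.08. Whether counting used the strand is not given in the sources used here, so reads of an antisense gene and its Hox partner cannot be told apart. Under the filter, Gm53 in the Hoxb cluster stood at 0.20, 0.20 and 0.71 FPKM in WT and 0.97, 0.80 and 1.45 FPKM in mutant libraries, without overlap. Of 6 microRNA precursor genes 3 were listed at 0 in every library. Mir615, inside a transcript of Hoxc5, was listed at 0 in WT and at 1.02, 1.20 and 1.09 FPKM in mutant libraries, values worth about 1.60, 1.61 and 1.61 estimated fragments.

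Of 16 protein-coding neighbours of the clusters 13 were tested and 1 was called, a share near the 5.60% of all genes. Snx10, an endosomal sorting nexin next to the Hoxa cluster, stood at 27.48, 26.20 and 35.36 FPKM in WT and 19.08, 16.34 and 15.24 FPKM in mutant libraries, and fell by 0.77 on the log2 scale (limma adjusted p = 0.0427). The groups did not overlap, but leaving out any 1 library took the adjusted p above the threshold (adjusted p 0.0593 to 0.175). The call also ended with the replicate block (adjusted p 0.0816), with GC correction and the block (0.0818), with quantile normalization (0.0689), with no filter (0.0523) and with a minimum mean of 5 FPKM (0.0505). Of the tested neighbours, Lnpk and Skap2, not called, also had groups without overlap, as had 20.0% of all genes. Lnpk, beside Hoxd, stood at 4.03, 3.62 and 3.84 FPKM against 1.53, 2.40 and 2.26 FPKM (log2 fold change -0.67, limma adjusted p = 0.0692). Skap2, beside Hoxa, was higher in mutant samples (0.43, limma adjusted p = 0.194). Beside the Hoxc cluster, the ATP synthase subunit gene Atp5g2, the coactivator gene Calcoco1, the DNA repair gene Smug1 and the heterochromatin protein gene Cbx5 had log2 fold changes of -0.13, -0.10, 0.0078 and -0.03, and none was called.

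No partner of Hox proteins and no keeper of the clusters on the lists was called. None of 8 tested genes of the Pbx, Meis and Pknox families was called by limma (median log2 fold change 0.02; 0 of 8 at an unadjusted p under 0.05, against 15.2% of all genes). Meis1, named after its values were seen as the 1 gene of that list whose groups did not overlap, stood at 14.73, 12.69 and 11.74 FPKM against 11.27, 10.96 and 9.71 FPKM (log2 fold change -0.27; limma adjusted p = 0.481). None of 15 Polycomb genes was called (median 0.09; 1 of 15 at an unadjusted p under 0.05). That gene was Ezh2, the methyltransferase that deposits the repressive H3K27 mark, at 1.65, 1.92 and 1.65 FPKM in WT and 2.75, 2.38 and 2.34 FPKM in mutant libraries (0.35; adjusted p = 0.29996). The groups of Ezh2 did not overlap. None of 8 Trithorax and H3K27 demethylase genes was called (median 0.0050; 1 of 8 at an unadjusted p under 0.05). Kmt2a, the methyltransferase MLL that keeps Hox genes active, stood at 5.18, 5.27 and 7.69 FPKM against 5, 7.84 and 8.02 FPKM, with overlap. The gene at an unadjusted p under 0.05 was Kmt2b, a related methyltransferase, named after its values were seen, at 6.84, 6.48 and 5 FPKM against 7.79, 10.22 and 7.51 FPKM, without overlap (0.42; adjusted p = 0.318). Eed, a Polycomb subunit named in the same way, also had groups that did not overlap (11.78, 11.72 and 9.45 FPKM against 12.14, 14.51 and 12.22 FPKM; log2 fold change 0.22).

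Genes of retinoic acid and of the axial factors upstream of Hox were likewise not called. Of 12 tested genes of retinoic acid synthesis, breakdown and reception none passed by limma (median 0.06; 1 of 12 at an unadjusted p under 0.05). Aldh1a1, an enzyme that makes retinoic acid, stood at 33.44, 48.07 and 44.16 FPKM in WT and 40.56, 38.77 and 44.94 FPKM in mutant libraries, with overlap. The 1 gene at an unadjusted p under 0.05 was Rxrg, a retinoid X receptor, named after its values were seen. It stood at 8.66, 10.11 and 13.38 FPKM against 6.22, 7.18 and 6.09 FPKM, without overlap (log2 fold change -0.63, limma adjusted p = 0.117). Rxra, another retinoid X receptor named in the same way, went the other way. Its level was 21.56, 21.38 and 18.58 FPKM against 30.86, 25.39 and 23.06 FPKM, also without overlap (0.34, limma adjusted p = 0.367). Of 6 Cdx and other axial factors 4 were in the table and 3 were tested, none called by limma (median 0.27; 0 of 3 at an unadjusted p under 0.05). Cdx1, which switches on trunk Hox genes in the embryo, was listed at 0 in 5 libraries and at 0.04 FPKM in WT replicate 3. Cdx2 and Cdx4 were not analysed here.

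Other transcription factors of position and lineage held the called genes. Of 14 tested neural crest, outflow tract and second heart field genes 2 fell, none rose and 12 were not called (median log2 fold change 0.10), where 4.85% of all genes were lower and 0.744% higher. Hand1, a factor of the heart and of sympathetic neurons, stood at 38.72, 32.38 and 19.62 FPKM in WT and 6.72, 5.11 and 3.73 FPKM in mutant libraries, and fell by 2.31 on the log2 scale (limma adjusted p = 0.00459). Isl1, a factor of the second heart field and also of sympathetic neurons, stood at 15.93, 15.31 and 16.64 FPKM against 3.30, 4.28 and 2.52 FPKM, and fell by 1.98 (adjusted p = 0.00219). Neither group of libraries overlapped the other in these genes. Of 10 tested somitic and trunk mesoderm genes 1 fell, 1 rose and 8 were not called (median 0.07), counts too small to set against those 4.85% and 0.744%. Eya1, a transcriptional coactivator, stood at 10.61, 8.03 and 10.56 FPKM in WT and 1.14, 2.16 and 1.66 FPKM in mutant libraries, and fell by 2.02 (adjusted p = 0.00224). The calls of Hand1, Isl1 and Eya1 held under every alternative run. Markers of sympathetic neurons and chromaffin cells, summed at 1528 to 1772 FPKM (WT) and 177.2 to 324.2 FPKM (Fbn1C1041G/+), moved with these 3 genes, and their part in the result was not tested.

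Tcf21, a factor of epicardial and adventitial mesenchyme, was the somitic and trunk gene that rose. It stood at 2.27, 3.58 and 2.23 FPKM in WT and 5.62, 5.81 and 9.07 FPKM in mutant libraries (log2 fold change 1.08 ± 0.23, SE; limma adjusted p = 0.0391). Every mutant library lay above every WT library, but the call ended without any library except WT replicate 2 (adjusted p 0.07097 to 0.149 without another), with the replicate block (0.05997), with GC correction and the block (0.0792) and with no filter (0.0755). Meox1, a homeodomain factor of somites and of activated fibroblasts, stood at 3.21, 4 and 4.60 FPKM against 5.33, 4.97 and 6.23 FPKM, without overlap (0.40; adjusted p = 0.291). The 5 fibroblast markers summed to 1327 to 1445 FPKM (WT) and 1334 to 1672 FPKM (Fbn1C1041G/+). Heart muscle markers, 5 of 8 higher and summed at 18.1 to 34.1 against 114.9 to 437.0 FPKM, moved with Tcf21. The 4 mesothelial markers, 2 of them tested and none called, summed to 0.99 to 2.49 against 3.02 to 13.5 FPKM. The part of these cells in the Tcf21 result was not tested.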

How the data were processed

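RNA was measured in 6 libraries of mouse aortic tissue, 3 per genotype, grouped by the genotype in the labels. Per the labels' protocols, poly(A) RNA was fragmented, copied with random primers, amplified and circularised. The authors deposited FPKM values per NCBI gene number, to 2 decimals. Per the submitters' processing notes the genome build was mm9. The sources used here do not name the aligner, the counter, the annotation or the strand setting. All sample columns were matched to a sample.

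Gene symbols came from an NCBI table, which named 21059 of 21117 genes. FPKM is not a count, so log2(FPKM + 1) was fitted with limma 3.58.1 (R 4.3.3; lmFit, eBayes with trend), 2-sided, with Benjamini-Hochberg adjustment over the 13438 genes that averaged 1 FPKM or more, at a threshold of 0.05, and 7679 genes were left out. Fold changes are Fbn1C1041G/+ minus WT and understate those of low genes because of the pseudocount of 1. With 3 libraries per group the number of libraries limits the precision. Fragments per library were estimated from the steps between FPKM values of genes with 1 transcript of 400 to 2000 bases; 74.7 to 78.7% of these values lay within 0.2 of a whole fragment, too few to recover counts. At most 1.69% of values were equal between any libraries. The fit was tested on simulated data with 50 changed genes at each size. It recovered 6% of 1.5-fold, 54% of 2-fold, 98% of 4-fold and 94% of 8-fold changes. Of all calls there 8.7% were false. A gene that was not called may therefore still differ, even by about 2-fold.

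Every analysed Hox gene of at least 1 FPKM was named, and of each other list its first gene and up to 4 called genes, except for items not reported here; Meis1, Kmt2b, Eed, Rxrg, Snx10 and the noncoding genes and neighbours fall outside that rule and were named after their values were seen. The members and lists were chosen with earlier results of these data known. Alternatives were other pseudocounts, filters, scalings, moderation, sample weights, a replicate block, a GC correction (loess span 0.3) and leaving out each library. Promoter sequences are from RefSeq (GRCm38.p6) and transcripts from GENCODE M21. Figures were drawn with matplotlib 3.10.9 (Python 3.11.15).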

Additional observations from a re-analysis of the deposited data

How the results depend on the processing

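Called Hox genes numbered 0 lower and 0 higher; 1 (Hoxc4) was called lower with sample weights, with the replicate block, with a GC correction and the block, and at an adjusted p under 0.1. Hoxc4 lay below 0 in all 18 alternatives (-1.06 to -0.68; adjusted p 0.0196 to 0.235), Hoxc5 in all 17 (-0.67 to -0.38), Hoxc6 in all 18 (-0.57 to -0.34) and Hoxc8 in all 18 (-0.62 to -0.32). Whether the replicate numbers pair the libraries is not known. Same-number correlations were 0.26, -0.02 and 0.10, too few values to decide it. Over all genes the block gave 586 lower and 112 higher calls, against 652 and 100 without it. Sample weights gave 1011 and 285, a minimum mean of 5 FPKM, under which Hoxc5 was not tested, 349 and 33, and leaving out 1 library 372 to 733 lower and 36 to 193 higher. No scaling moved the median of all genes by more than 0.04.

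Of the other lists, sample weights gave 1 Trithorax gene and 4 neural crest genes lower. The number of somitic genes called higher was 0 with no filter, with the block, and with GC correction and block (0 to 1 when leaving out 1 library). It was also 0 with the minimum of 5 FPKM, under which Tcf21 was not tested. Leaving out 1 library, the Hoxd median ranged from 0.088 to 0.38 and that of paralogs 4 to 8 from -0.22 to 0.049. Without Hoxc6, mean shares of the Hox sum were 36.1% (WT) and 37.99% (mutant) for Hoxa, 21.97% and 16.1% for Hoxc, 9.85% (mutant) for Hoxd, 59.8% and 56.4% for paralogs 4 to 8, and 16.4% (WT) for paralogs 9 to 13.

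Signs turned in genes near 0, none called. With sample weights the values were -0.11 for Hoxa3, -0.13 for Hoxa4, -0.024 for Hoxa10, -0.13 for Hoxb2, -0.053 for Hoxb3 and -0.19 for Hoxc10. Hoxc10 was -0.0012 and -0.0016 with pseudocounts of 0.1 and 0.01 FPKM. With quantile normalization, median-ratio scaling, GC correction, and that correction with the block, values were 0.017, 0.017, 0.024 and 0.024 for Hoxb6, 0.028, 0.017, 0.031 and 0.031 for Hoxb8, and 0.055, 0.038, 0.027 and 0.027 for Aldh1a1. Leaving out 1 library, values ranged from -0.23 to 0.26 for Hoxa3, -0.22 to 0.26 for Hoxa4, -0.048 to 0.12 for Hoxa5, -0.32 to 0.012 for Hoxa7, -0.087 to 0.15 for Hoxa9, -0.032 to 0.20 for Hoxa10, -0.19 to 0.36 for Hoxb2, -0.19 to 0.13 for Hoxb3, -0.051 to 0.33 for Hoxb4 and -0.28 to 0.025 for Hoxb5. They ranged from -0.048 to 0.026 for Hoxb6, -0.24 to 0.25 for Hoxb8, -0.00081 to 0.28 for Hoxb9, -0.25 to 0.050 for Hoxc9, -0.24 to 0.12 for Hoxc10, -0.012 to 0.28 for Hoxd4 and -0.15 to 0.10 for Aldh1a1. The cause of each of these changes was not tested.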
